A study of Mus musculus with 3 samples.

Results

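The Notch pathway was followed in fibroblasts through 9 genes, chosen by symbol from the 15554 rows of the deposited expression table. They are the receptor genes *Notch1*, *Notch2* and *Notch3*, the ligand genes *Jag1* and *Jag2*, and the Hes and Hey target genes *Hes1*, *Hey1*, *Hey2* and *Heyl*. All 9 were found, each on a row of its own. The cells were NIH3T3, an established line of mouse embryonic fibroblasts, which had been placed in serum-free IMDM before stimulation. The 3 groups were unstimulated cells (CTRL), cells stimulated with GDF15 protein at 100 ng/mL and cells stimulated with TGF-β protein at 4 ng/mL, both for 24 h. Each group is 1 library from RNA pooled within the treatment, so the differences below cannot be set against replicate error and carry no p-value. The line was treated in culture with added protein, no other cell type was present by design, and the doses of the 2 stimuli differ.

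Notch receptors are membrane proteins that are activated by ligands on a neighbouring cell. Binding of a Jagged or Delta-like ligand leads to cleavage of the receptor, first by an ADAM protease and then by γ-secretase, and the freed intracellular domain joins the DNA-binding protein RBPJ and a Mastermind coactivator in the nucleus. The classical targets are the Hes and Hey genes, which encode transcriptional repressors of the basic helix-loop-helix class. In fibroblasts and other mesenchymal cells the pathway is known for its part in differentiation and in matrix production, and *Jag1* and *Hes1* are known to respond to TGF-β in several cell types.

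The values are FPKM, a count of fragments scaled to transcript length and library depth, which can be compared between genes. The steps between low FPKM values put the depth of CTRL at 18.4, that of GDF15 at 21.6 and that of TGF-β at 17.5 in units of 1000000 fragments. From these depths and the transcript lengths, fragments per gene were estimated, and 95% intervals were calculated that cover counting error only. A change is a difference of log2(FPKM + 1), a scale on which low genes appear to move less than they do. A gene was counted when its change was over 2-fold, the criterion of the study, or over 1.5-fold.

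Of the 9 fibroblast marker genes examined, 8 had an FPKM over 1, among them *Col1a1*, *Col1a2*, *Pdgfra* and *Thy1*, whereas *Lum* was at or near 0. None of the 6 endothelial and none of the 5 epithelial markers had an FPKM over 1 in any library, and the endothelial markers summed to between 0.252 and 0.329. Of 4 mural cell markers, *Cspg4* alone passed 1, at 60.8 FPKM in CTRL, at 74.1 in GDF15 and at 87.7 in TGF-β. Its part in the results below was not tested. *Rgs5*, *Mcam* and *Kcnj8*, the other 3 mural markers, stayed below 1. Of the remaining lists, *Cd68* among 4 leukocyte markers and *Nes* and *Tubb3* among 4 neural markers passed 1, at no more than 2.28, and none of 3 skeletal muscle markers did. Known TGF-β target genes were higher in both stimulated libraries than in CTRL. *Ctgf* had an FPKM of 9.03, 41.3 and 77.3, *Acta2* of 20.4, 73.6 and 96.1, and *Smad7* of 2.58, 3.28 and 4.36, each in the order CTRL, GDF15 and TGF-β. The study named *Ctgf* and *Acta2* from these same libraries, so these values are not independent evidence.

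Promoter sequences of 6 of the 9 genes were in the RefSeq table (GRCm38.p6), and those of *Jag1*, *Notch2* and *Hey2* are shown because they belong to the ligand of the 9 genes that changed most, the most abundant receptor and a classical target that was listed at 0. *Hes1*, *Hey1* and *Heyl* were not in the table. The 250 bases before each RefSeq start were searched on both strands for the core of the RBPJ site (TTCCCAC), the Smad box (CAGAC) and a class C site that Hes and Hey proteins bind (CACGCG). Matches are in capitals. Bases inside the GENCODE M21 gene are not printed, and 126 bases are shown for *Jag1* (chr2:137116645-137116770, minus strand), 239 for *Notch2* (chr3:98013288-98013526, plus strand) and 232 for *Hey2* (chr10:30842802-30843033, minus strand), each read 5′ to 3′ along the gene.
Jag1: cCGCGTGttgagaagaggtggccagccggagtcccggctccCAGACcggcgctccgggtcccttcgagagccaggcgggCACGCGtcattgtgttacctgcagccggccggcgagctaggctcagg
Notch2: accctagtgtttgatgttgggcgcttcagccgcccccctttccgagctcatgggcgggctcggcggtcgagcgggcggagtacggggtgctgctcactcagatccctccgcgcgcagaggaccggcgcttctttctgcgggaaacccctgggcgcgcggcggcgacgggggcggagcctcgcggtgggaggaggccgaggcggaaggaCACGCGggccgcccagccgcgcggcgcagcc
Hey2: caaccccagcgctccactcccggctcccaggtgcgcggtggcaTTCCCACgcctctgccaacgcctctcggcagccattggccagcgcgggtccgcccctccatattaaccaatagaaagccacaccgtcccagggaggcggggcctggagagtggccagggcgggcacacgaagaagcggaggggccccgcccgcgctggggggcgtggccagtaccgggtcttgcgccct

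The *Jag1* window held 2 class C sites, which begin 249 and 171 bases before the start, and 1 Smad box at 209. Among all 32851 promoters of the table, 7.62% held at least 1 class C site and 1.27% held 2 or more, while 42.2% held a Smad box. The *Hey2* window held 1 RBPJ core, 207 bases before the start, which 5.42% of the promoters hold. *Notch2* had 1 class C site and *Notch3* had 2 Smad boxes, a number that 11.7% of promoters reach or pass. The windows of *Notch1* and *Jag2* held 0 matches to the 3 motifs, and all 250 bases of both lie inside the GENCODE M21 gene. These are matches of letters in a short window and not binding sites that were measured.

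Among the receptors, *Notch2* was the most abundant in every library, *Notch1* was lower, and *Notch3* was near the limit of detection. *Notch2* (ENSMUSG00000027878, chromosome 3 of GRCm38, 98013527 to 98150361, plus strand) was at 14.4 FPKM in CTRL, at 18.2 in GDF15 and at 17.7 in TGF-β. Both stimulated libraries were above CTRL by 1.26 times (counting interval 1.20 to 1.32) and 1.23 times (1.16 to 1.29), below the 1.5-fold mark, and between GDF15 and TGF-β the interval of the ratio (0.928 to 1.02) held 1. *Notch1* (ENSMUSG00000026923, chromosome 2, 26457903 to 26516663, minus strand) was at 7.05, 6.33 and 5.58 FPKM in these libraries, with its lowest level in TGF-β. Its level was 10.2% below CTRL in GDF15 and 20.9% below CTRL in TGF-β, and its changes were -0.14 and -0.29. The ratio of *Notch2* to *Notch1* was lowest in CTRL (2.05), followed by GDF15 (2.87) and TGF-β (3.17).

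Both receptor transcripts are long, and in these libraries the change followed the length of the transcript. Among genes that averaged at least 1 FPKM, the median change with GDF15 was -0.24 for coding transcripts no longer than 1500 bases and 0.14 above 6000 bases, and with TGF-β it was -0.17 and 0.03. The longest coding transcripts of *Notch1* and *Notch2* have 9488 and 10500 bases. After the running median of the 501 genes nearest in length was subtracted, the change of *Notch2* was 0.14 with GDF15 and 0.23 with TGF-β, and that of *Notch1* was -0.31 and -0.34. *Notch2* therefore lost 0.17 of its change with GDF15 in this way. How far length acts on these values was not tested further.

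**Figure D1:**
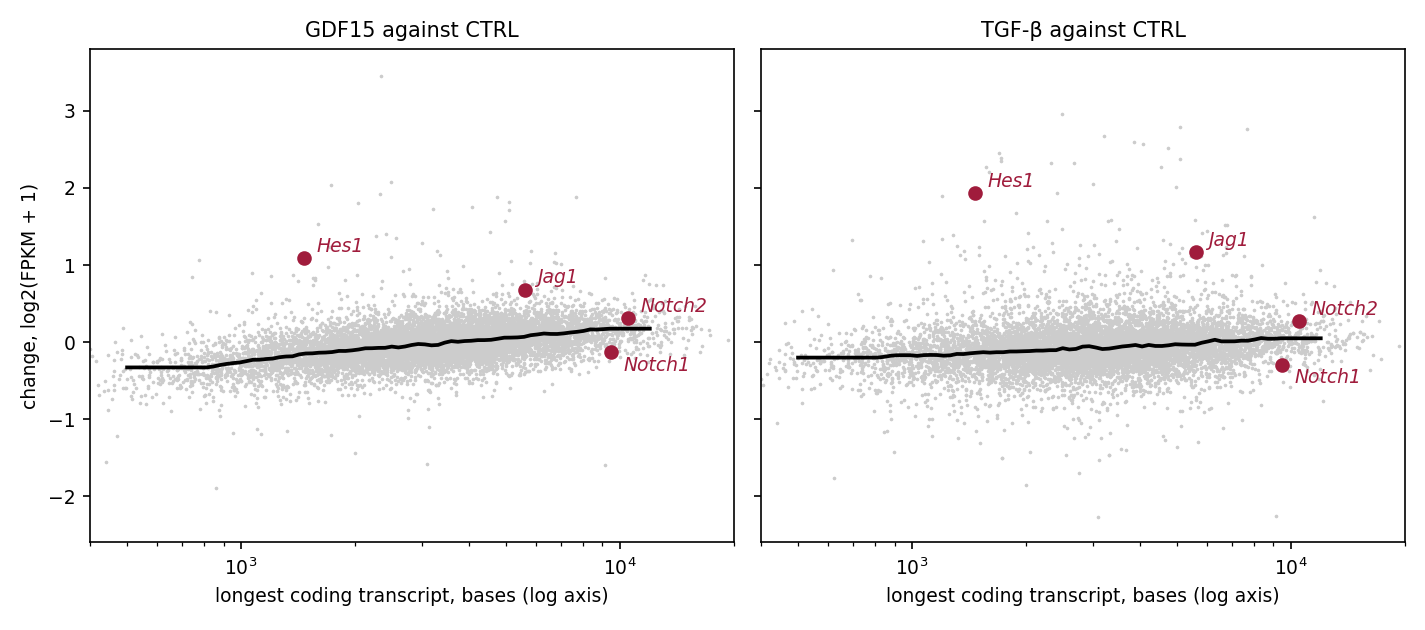
Change with GDF15 (left) and TGF-β (right) against CTRL, as differences of log2(FPKM + 1), by longest coding transcript in bases (log axis). Each grey point is a gene averaging at least 1 FPKM, the black line is the running median over 501 genes, and *Hes1*, *Jag1*, *Notch1* and *Notch2* are marked. *Hes1* and *Jag1* lie above the line in both panels and *Notch1* lies below it.

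*Notch3* (ENSMUSG00000038146, chromosome 17, 32120820 to 32166852, minus strand), a receptor typical of mural cells, was at 0.0621 FPKM in CTRL, at 0.0829 in GDF15 and at 0.0579 in TGF-β. These values correspond to an estimated 8.94, 14.0 and 7.94 fragments, and the intervals of the 3 levels overlap. A difference was not detectable at this depth, since the ratio of TGF-β to CTRL, 0.932, had a counting interval of 0.313 to 2.73. *Notch4*, the receptor gene outside the 9, had an FPKM of 5.87, 7.98 and 9.42. It was 1.36 times as high in GDF15 as in CTRL (counting interval from 1.24 to 1.5) and 1.60 times as high in TGF-β (1.46 to 1.77), a change of 0.60 with TGF-β, just over the 1.5-fold mark. Of the summed FPKM of the 4 receptor genes, *Notch2* made up 52.6%, 55.8% and 54.0% in CTRL, GDF15 and TGF-β, *Notch1* 25.7%, 19.4% and 17.0%, and *Notch4* 21.4%, 24.5% and 28.8%. In CTRL *Notch1* stood above *Notch4*, and in both stimulated libraries the order was the other way.

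*Jag1*, which encodes the ligand Jagged1, was higher with either stimulus and highest with TGF-β. The gene (ENSMUSG00000027276, chromosome 2, 137081456 to 137116644, minus strand) was at 10.6 FPKM in CTRL, at 17.6 in GDF15 and at 25.0 in TGF-β. The counting intervals of the 3 levels, 9.99 to 11.3, 16.9 to 18.4 and 24.0 to 26.0, do not overlap. *Jag1* was 1.66 times as high in GDF15 as in CTRL (1.54 to 1.79), which is a change of 0.68, and 2.36 times as high in TGF-β (2.19 to 2.53), which is a change of 1.16. It passed 1.5-fold with GDF15 and 2-fold with TGF-β. In TGF-β it was 1.42 times as high as in GDF15 (1.34 to 1.51), a change of 0.48 that passed neither mark.

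*Jag2*, the other Jagged ligand gene (ENSMUSG00000002799, chromosome 12, 112907819 to 112929776, minus strand), was expressed at a low level at 0.361 FPKM in CTRL, at 0.238 in GDF15 and at 0.262 in TGF-β. Its estimated fragments were 32.6, 25.3 and 22.5, and the ratios to CTRL of 0.660 (0.368 to 1.12) and 0.726 (0.410 to 1.28) had intervals that hold 1. The FPKM of *Jag1* was 29.5 times that of *Jag2* in CTRL, 74.1 times in GDF15 and 95.6 times in TGF-β. The Delta-like ligand genes gave little signal. *Dll1* was listed at 0 in all 3 libraries, *Dll3* in CTRL and TGF-β, and *Dll4*, a ligand typical of endothelial cells, had an FPKM of at most 0.0986.

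*Hes1*, a repressor gene that is the most widely used readout of Notch signalling, had the largest change of the 9 genes in all 3 comparisons. The gene (ENSMUSG00000022528, chromosome 16, 30064384 to 30067796, plus strand) was at 2.57 FPKM in CTRL, at 6.61 in GDF15 and at 12.6 in TGF-β. The counting intervals of these levels (1.96 to 3.31, 5.67 to 7.63 and 11.2 to 14.2) do not overlap. The values rest on an estimated 60.0, 181 and 281 fragments. *Hes1* was 2.57 times as high in GDF15 as in CTRL (1.91 to 3.50) and 4.91 times as high in TGF-β (3.71 to 6.61). On the log2(FPKM + 1) scale the changes were 1.09 and 1.93, both over 2-fold. They rank 26 and 22 among the rises of all 15554 rows. In TGF-β *Hes1* was 1.91 times as high as in GDF15 (1.58 to 2.32), a change of 0.84, which passed 1.5-fold and ranks 21 among the differences in that direction. The transcript is short, with 1468 bases, and after the median of genes of like length was subtracted the changes against CTRL were 1.25 and 2.07.

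The Hey genes did not share this pattern at a level that could be measured. *Hey1* (ENSMUSG00000040289, chromosome 3, 8663359 to 8667256, minus strand), which acts beside *Hes1* as a repressor downstream of Notch, was at 0.0534 FPKM in CTRL, at 0.0915 in GDF15 and at 0.0839 in TGF-β. This is an estimated 2.18, 4.40 and 3.27 fragments, at or near the floor of 3 fragments. The ratio of GDF15 to CTRL was 1.72 with a counting interval of 0.244 to 18.8, so a change of *Hey1* was not detectable. *Hey2* (ENSMUSG00000019789, chromosome 10, 30832359 to 30842801, minus strand) and *Heyl* (ENSMUSG00000032744, chromosome 4, 123233556 to 123249875, plus strand), known from blood vessels and muscle, were listed at 0 in every library. At the estimated depths a level of up to 3 fragments could be missed, which is an FPKM of 0.0693, 0.0590 and 0.0728 for *Hey2* and of 0.0376, 0.0320 and 0.0394 for *Heyl* in CTRL, GDF15 and TGF-β.

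**Figure D2:**
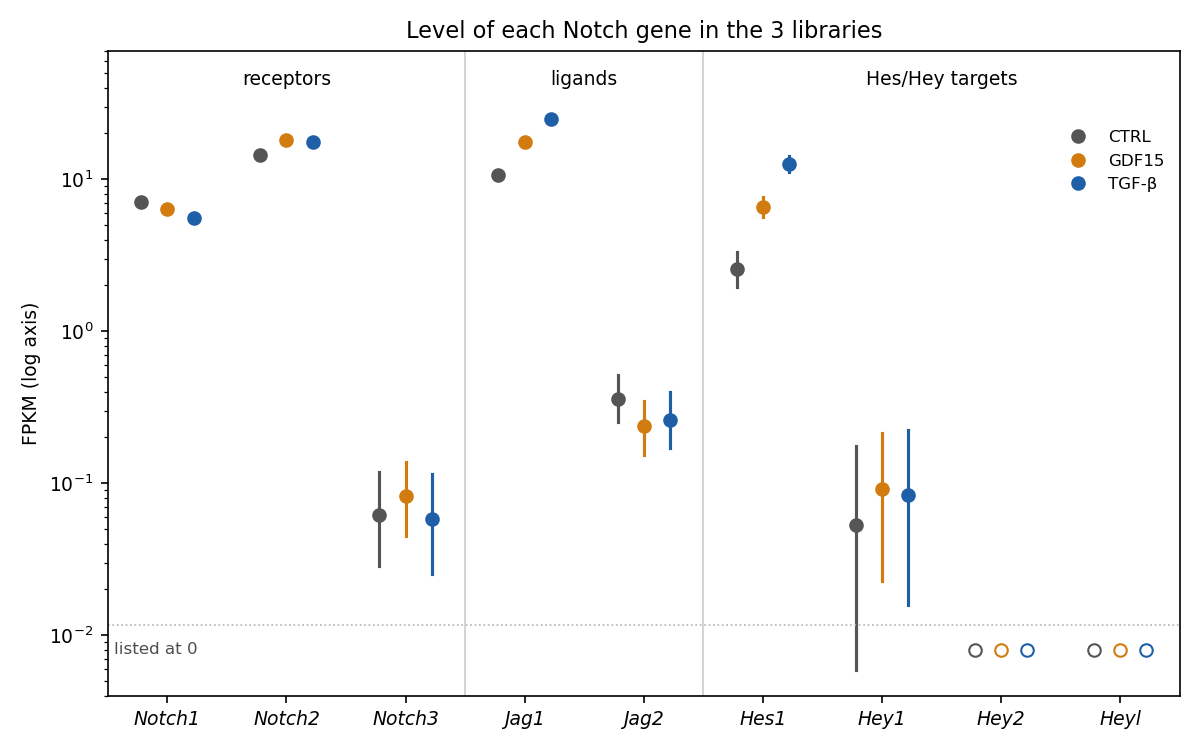
FPKM (log axis) of the 9 Notch genes in the CTRL, GDF15 and TGF-β libraries, with vertical lines for 95% Poisson intervals of the estimated fragments (counting error only). *Hes1* and *Jag1* are ordered CTRL, GDF15, TGF-β with intervals that do not overlap, and *Hey2* and *Heyl* are drawn as open symbols because they are listed at 0.

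Over the 9 genes, GDF15 against CTRL put 1 over 2-fold (*Hes1*), where 0.289% of all rows passed in either direction, and 2 over 1.5-fold (*Hes1* and *Jag1*), where 1.81% passed. TGF-β against CTRL put the same 2 genes over 2-fold, against 0.913% of all rows, and 2 over 1.5-fold, against 3.6%. Between TGF-β and GDF15, 0 of the 9 passed 2-fold, against 0.103% of all rows, and *Hes1* passed 1.5-fold, against 1.02%. Each gene that passed was higher in the library named first. *Jag2*, *Notch3*, *Hey1*, *Hey2* and *Heyl*, at 0.361 FPKM or less in every library, could not be lower by 1.5-fold on this scale. Of the 9, 4 averaged at least 1 FPKM over the libraries (*Notch1*, *Notch2*, *Jag1* and *Hes1*). Among the 9226 rows with such an average, 0.477% passed 2-fold with GDF15 and 1.48% with TGF-β. The median change over all 9 genes was 0.03 with GDF15 and 0 with TGF-β, and the median of all rows was 0 with both. Because *Hey2* and *Heyl* were listed at 0 and *Jag2*, *Notch3* and *Hey1* were low, the median of the 9 was bound to lie near 0. No conclusion is drawn from it. Both comparisons share the CTRL library, so their changes are not independent of each other.

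**Figure D3:**
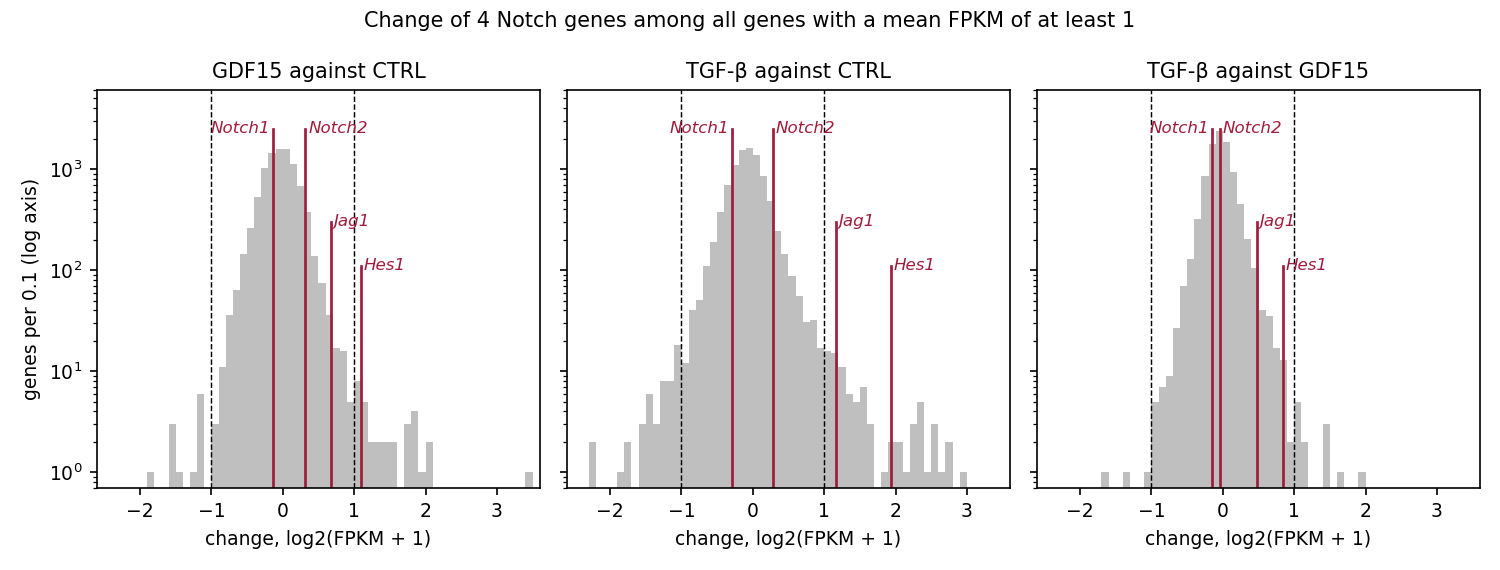
Histograms of the change, as a difference of log2(FPKM + 1), over the 9226 rows averaging at least 1 FPKM (rows per bin of 0.1, log axis) for GDF15 against CTRL, TGF-β against CTRL and TGF-β against GDF15. Red lines mark *Notch1*, *Notch2*, *Jag1* and *Hes1*, and dashed lines mark 2-fold. *Hes1* passes 2-fold in the first and second panels and *Jag1* in the second.

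The rest of the pathway was followed with a list of 68 further genes, of which 66 were in the table. An average of at least 1 FPKM was reached by 48, and 6 were listed at 0 throughout. GDF15 against CTRL put 3 of the 66 over 1.5-fold, 1 higher and 2 lower, where 1.81% of all rows passed in either direction. The higher one was *Postn*, which the study selected in these same libraries. *Postn* is also in the next 2 counts, so none of the 3 counts is independent of that selection. TGF-β against CTRL put 9 over 1.5-fold, 4 higher and 5 lower, against 3.6% of all rows. TGF-β against GDF15 put 5 over it, 2 higher and 3 lower, against 1.02%. All the genes that passed averaged at least 1 FPKM. Among rows with such an average 2.82%, 5.59% and 1.54% passed 1.5-fold in the 3 comparisons. The median change of the 48 was 0.01, -0.06 and -0.10 in the 3 comparisons, and that of all 9226 rows averaging at least 1 FPKM was -0.03, -0.07 and -0.04.

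*Dlk1*, which encodes a membrane protein related to Notch ligands that lacks the domain needed to activate the receptor and is known to restrain fat cell differentiation, had the highest mean FPKM of the list over the 3 libraries. It was at 229 FPKM in CTRL, at 148 in GDF15 and at 94.2 in TGF-β, with changes of -0.63 and -1.27 against CTRL. The first of these became -0.49, short of 1.5-fold, when the trend with expression was removed. The order of the libraries is the reverse of that for *Jag1*, and the ratio of *Dlk1* to *Jag1* was 21.6, 8.41 and 3.76. *Nov*, a CCN family gene whose protein can bind Notch1, had an FPKM of 2.20, 0.890 and 0.363, the last of which is an estimated 17.0 fragments, and changes of -0.76 and -1.23. These changes depend on the added 1 FPKM, and the plain ratios of *Nov* to CTRL were 0.405 and 0.165. Between the stimuli its change of -0.47 passed 1.5-fold only with a smaller pseudocount or none.

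*Mfap5*, a microfibril protein gene whose product binds Jagged1 and Notch1, had an FPKM of 9.91, 14.3 and 22.9 and changes of 0.49 and 1.13. The first of these became 0.63, over 1.5-fold, when the trend with length was removed. *Thbs2*, which encodes the matrix protein thrombospondin-2, was at 141 FPKM in CTRL, at 150.4 in GDF15 and at 91.0 in TGF-β, a change of -0.63 against CTRL and of -0.72 against GDF15. Its change against CTRL fell short of 1.5-fold with upper quartile scaling (-0.56) and with the trend with expression removed (-0.56). *Postn*, the gene of the matrix protein periostin, had an FPKM of 0.730, 4.73 and 10.02. It belongs to the genes that the study selected in these same libraries, so its change is not independent evidence.

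*Dtx4*, a gene of the Deltex family of ubiquitin ligases, had an FPKM of 28.5, 27.5 and 16.9, with a change of -0.05 with GDF15 and -0.72 with TGF-β. *Tle2*, which encodes a Groucho corepressor that Hes proteins recruit, had an FPKM of 52.1, 35.3 and 28.7 and changes of -0.55 and -0.84. *Bhlhe40*, a repressor gene related to the Hes family, had an FPKM of 18.5, 23.6 and 35.0 and changes of 0.34 and 0.89. It was the most abundant of the 9 further target and Hes family genes. *Hes6* had changes of -0.37 and -0.39 and *Bhlhe41* of -0.08 and -0.32, below 1.5-fold, and *Hes2*, *Hes3*, *Hes5* and *Helt* were listed at 0 in all libraries. *Nrarp*, a direct Notch target that feeds back on the receptor complex, was listed at 0 in CTRL and TGF-β and had an FPKM of 0.0193 in GDF15.

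The changes of the 9 genes for cleavage of the receptor ran from -0.37 to 0.44 with GDF15 and from -0.26 to 0.27 with TGF-β. *Aph1a*, a γ-secretase subunit gene, had the highest mean FPKM of them, at 41.6, 38.3 and 36.2, although *Psenen* was higher in CTRL and TGF-β and *Adam10* in GDF15. The 6 genes of the nuclear complex had changes from -0.07 to 0.17 with GDF15 and from -0.20 to 0.02 with TGF-β. *Rbpj*, the DNA-binding partner of the receptor, is among these 6. *Snw1* was their most abundant gene, at 28.9, 30.0 and 27.1, but shares 2914 exon bases with *Slirp* on the opposite strand. Of 5 glycosylation genes, 3 averaged at least 1 FPKM, and *Poglut1* was the most abundant at 25.0, 25.9 and 25.1. *Dtx3* and *Ctbp1* led the ubiquitin and corepressor genes, at 66.8, 52.6 and 57.2 and at 64.1, 57.8 and 59.3.

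**Figure D4:**
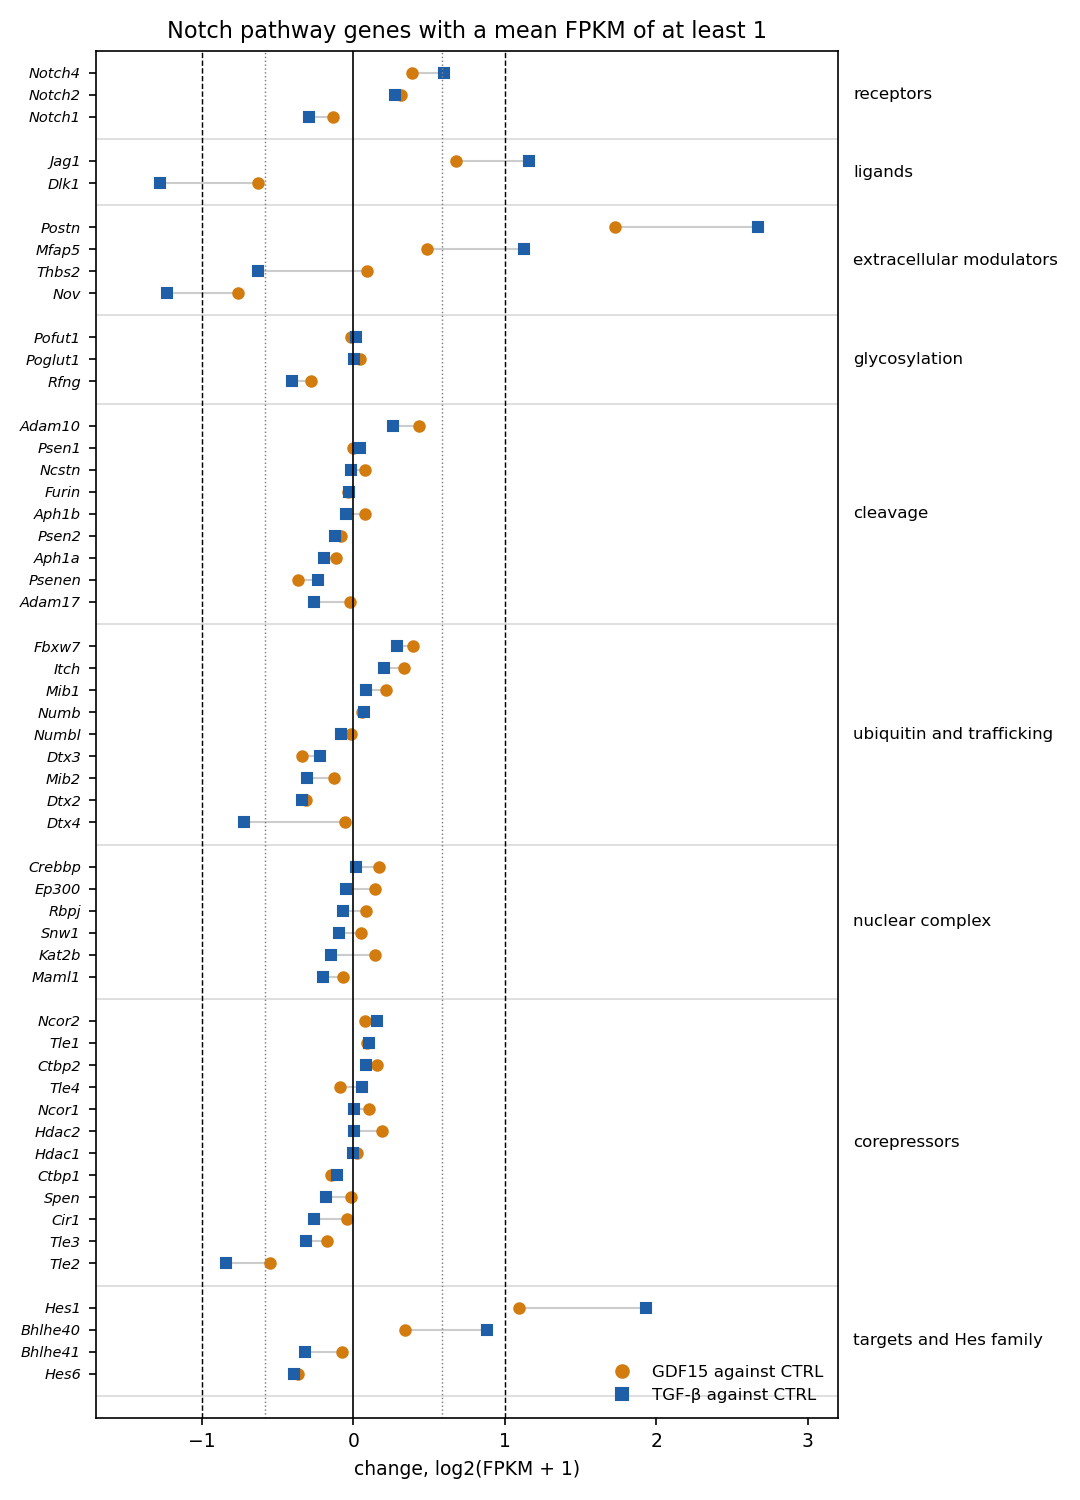
Change with GDF15 (circles) and TGF-β (squares) against CTRL, as a difference of log2(FPKM + 1), for the 4 Notch members and the 48 further pathway genes averaging at least 1 FPKM, grouped by role. Dashed lines mark 2-fold and dotted lines 1.5-fold. *Hes1*, *Jag1*, *Mfap5* and *Postn* lie furthest to the right with TGF-β and *Dlk1* and *Nov* furthest to the left, while the cleavage genes and the nuclear complex lie inside the dotted lines.

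Reads of overlapping genes limit some of these levels. In GENCODE M21, exons of *Notch1* share 1068 bases with *0610009E02Rik* and those of *Notch3* share 488 bases with *Gm17276*, both on the opposite strand. Those of *Notch2* share 541 bases with *Gm42820* on the same strand, which strand cannot resolve. The libraries were stranded, but whether the counting used the strand is not given in the sources used here.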

How the data were processed

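RNA-seq was done on 3 libraries of NIH3T3 fibroblasts, 1 each for CTRL, GDF15 and TGF-β, with RNA pooled within the treatment. The authors made stranded mRNA libraries, read them from 1 end and calculated FPKM with Cufflinks. The deposited FPKM cover protein coding genes reviewed in UniProt. The submitters' processing notes name TopHat 1.3.2, Bowtie 0.12.9, Cufflinks 2.0.2 and the mm10 build. Columns were assigned by the treatment in their names.

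From the deposited FPKM, differences of log2(FPKM + 1) were computed. With 1 library per group no test was possible, and calls are folds over 2 or 1.5. Depth was taken as the value at which FPKM times length, less 200 bases, fell nearest to whole numbers over 2172 genes with 1 annotated transcript. At that depth, 72.5% to 74.9% of the low values lay within 0.15 of a whole number. Fragments per gene use the longest coding transcript of GENCODE M21 (GRCm38), and 15462 rows were matched, 749 of them by a RefSeq synonym. Levels have exact Poisson intervals and ratios exact conditional binomial (Clopper-Pearson) intervals, at 95%. The FPKM summed to between 306603 and 331179.

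The members and lists were chosen with earlier results of these data known. Genes named are the 9 members, pathway genes that averaged at least 1 FPKM and had a change over 1.5-fold, the gene of highest mean FPKM in each role, 3 known TGF-β targets, markers of other cell types with an FPKM over 1, and the 3 genes nearest to the top member, of which 1 is not reported here. Others (*Hes6*, *Bhlhe41*, *Psenen*, *Adam10*, *Dll1*, *Dll3*, *Dll4*, *Nrarp*, *Rbpj* and genes listed at 0) were named after their values were seen. Fibroblast markers, *Rgs5*, *Mcam* and genes with overlapping exons were also named outside this rule. *Maml2* and *Maml3* were not analysed here. The alternatives tried were other pseudocounts, a filter, upper quartile scaling, and removal of trends with expression and length. The scripts were tested on simulated data. Python 3.11.15 was used with scipy 1.17.1, numpy 2.4.6, matplotlib 3.10.9 and pandas 2.3.3.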

Additional observations from a re-analysis of the deposited data

How the results depend on the processing

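No paired analysis was possible because each group has 1 library, which also means that none could be left out. Under the 7 alternatives the count of the 9 Notch genes over 2-fold stayed at 1 with GDF15, 2 with TGF-β and 0 between the stimuli. Without a pseudocount the share of all rows over 2-fold rose from 0.289% to 5.32%, from 0.913% to 7.12% and from 0.103% to 4.74%. The count over 1.5-fold with GDF15 went from 2 to 4 without a pseudocount, where 12.0% of all rows with a value passed. *Hey1* (higher) and *Jag2* (lower) were added there on few fragments. With TGF-β the count went from 2 to 3 with *Hey1* in the same setting, where 15.4% passed. The further pathway genes over 1.5-fold with GDF15 went from 3 to 7 with a pseudocount of 0.1 (7.07% of all rows) and to 6 of 52 with a value without a pseudocount (12.0%), and those with TGF-β from 9 to 14 with a pseudocount of 0.1 (9.93%). The count between the stimuli reached 7 with a pseudocount of 0.1 (5.97%) and without one (10.3%). The lowest counts were 2 with GDF15 (1.66% of all rows) and 8 with TGF-β (3.43%) with the expression trend removed, without *Dlk1* and *Thbs2* respectively. Between the stimuli the count went from 5 to 4 with the length trend removed (0.944%), where *Dlk1* and *Dtx4* were lost and *Bhlhe40* was added. Over these alternatives *Hes1* stayed between 1.09 and 1.36 with GDF15 and between 1.93 and 2.30 with TGF-β, *Jag1* between 0.61 and 0.73 and between 1.16 and 1.25. *Notch1* stayed below 0 and *Notch2* above 0 in both comparisons with CTRL, whereas between the stimuli *Notch2* ran from -0.04 to 0.08. Of 327 recomputed changes of single genes with a counting interval, 302 moved by no more than the counting error, 25 moved by more, and 0 of those over 1.5-fold changed sign. The filter leaves the change of each gene it keeps as it was, so those changes could not move and are counted among the 302. Depth limits *Jag2*, *Notch3*, *Hey1*, *Hey2* and *Heyl*, and the missing replicates limit every value.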

Other observations

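Among genes that averaged at least 1 FPKM, the pair of changes with GDF15 and TGF-β was compared with that of *Hes1* by Euclidean distance. *Tnnt2*, which encodes a troponin of cardiac muscle, lay at a distance of 0.24, at 0.531 FPKM in CTRL, at 1.78 in GDF15 and at 4.71 in TGF-β. It is below 1 FPKM in CTRL, and its plain ratios to CTRL, 3.35 and 8.87, are above those of *Hes1* (2.57 and 4.91), so its nearness depends on the added 1 FPKM. *Bgn*, which encodes the proteoglycan biglycan, lay at 0.31, with an FPKM of 290.3, 769.6 and 1117. *Bgn* is also among the genes that the study selected in these libraries. With 3 libraries this likeness rests on 2 values per gene that share the CTRL library.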
